A study of Arabidopsis thaliana with 24 samples.

Results

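AT1G10340 and AT4G11000 are Arabidopsis genes for proteins with ankyrin repeats. They are 2 of the genes behind the 22746 non-control probe sets of the ATH1 array, and each is the single annotated gene of 1 probe set. Both were chosen from measured values, namely their responses to a pair of elicitors and how these varied with time and genotype, so all values of the 2 genes are given as a description, with no test. In RefSeq, AT1G10340 lies on chromosome 1 with 2 transcripts and 2 proteins, and AT4G11000 lies on chromosome 4 with 1 transcript and 1 protein. Both probe sets passed the filter on dim values, as did 13648 of the 22746. AT4G11000 passed at a geometric mean of 98.9 over all arrays, against a cut of 74.2, and several of its groups lay below the cut.

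An ankyrin repeat is a short helical unit, and several of them in a row form a surface that binds other proteins. In Arabidopsis a large family joins ankyrin repeats to membrane-spanning segments at the other end of the protein. Its best known member, ACD6, promotes defence through salicylic acid (SA), the hormone that plants make against biotrophic pathogens. NPR1, the coactivator through which SA switches on many defence genes, also carries ankyrin repeats, and is a soluble protein. No role is stated here for AT1G10340 or AT4G11000 themselves.

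Total RNA came from the aerial tissue of 2-week-old soil-grown plants, hybridized to 24 arrays. Each of the 8 groups had 3 arrays, which the labels call independent biological replicates. Wild-type Col-0 plants were sprayed with 100 µM DCA (3,5-dichloroanthranilic acid), 100 µM INA (2,6-dichloroisonicotinic acid) or a mock solution of dilute DMSO in water, and harvested after 48 h or after 6 d. Plants of npr1-3, a mutant allele of NPR1, were sprayed with DCA or mock and harvested after 48 h. DCA and INA are synthetic elicitors of defence, both dichlorinated aromatic acids. DCA is built on a benzene ring with an amino group and INA on a pyridine ring. Col-0 is the accession, so all groups share its background, and npr1-3 is a single allele.

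The value of a probe set is its signal, a linear hybridization intensity scaled by the authors, and only differences within a probe set are compared. Array medians ran from 115.1 to 148.4. Of the 9 markers of green tissue listed, 1 had a probe set annotated to it alone. This was the Rubisco activase gene RCA, which stood between 17433 and 37164, with a median of 26328. Of 6 root markers 2 had such a probe set. The root hair gene EXPA7 ran from 8.89 to 79.8 (median 31.3), near or under the filter signal of 74.2. PYK10, a beta-glucosidase gene, ran from 2346 to 8896 (median 4906). In whole organs, fewer cells of a type and less RNA per cell cannot be told apart.

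Replicates of a group differed unevenly. Between replicates 1 and 2 the share of probe sets that differed over 2-fold was 18.3% to 20.4% in Col-0 mock, Col-0 INA and both npr1-3 groups at 48 h, and 15.6% and 16.4% with DCA and INA at 6 d. It was 0.901% with DCA at 48 h and 1.41% in mock at 6 d. Replicate 1 was the array apart with INA at 48 h, where replicates 2 and 3 differed at 4.04%, and with DCA and INA at 6 d, where they differed at 1.76% and 2.42%. In Col-0 mock at 48 h replicate 3 lay between the others, at 7.87% from replicate 1 and 4.98% from replicate 2. It lay between them also in npr1-3, at 7.51% and 10.4% in mock and at 6.53% and 6.84% with DCA. Values without replicate 1 of every group are given below beside each change of AT1G10340 and AT4G11000. For the other ankyrin-repeat genes and the SA genes, the adjusted p is given where a call was lost in that setting. What set these arrays apart was not tested.

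AT1G10340 was low in mock plants and higher with either elicitor. In Col-0 at 48 h its signal was 367, 133 and 141 in mock replicates 1, 2 and 3, a mean of 214 ± 133 (SD, n = 3). With DCA it was 797, 794 and 865, a mean of 818 ± 40.2. With INA it was 2434, 1193 and 1643, a mean of 1756 ± 628. The 3 groups did not overlap: each INA array lay above each DCA array, and each DCA array above each mock array. Mock replicate 1 was the high one of its group, and so was INA replicate 1.

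At 6 d the order of the treatments was the same for AT1G10340, with DCA closer to mock. Its mock signals were 132, 151 and 168, a mean of 150.4 ± 17.8. Those with DCA were 502, 338 and 302, a mean of 381 ± 107, and those with INA were 1068, 1343 and 1328, a mean of 1246 ± 155. Again the 3 groups did not overlap.

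In npr1-3 at 48 h, AT1G10340 had signals of 174, 59.4 and 114 in mock, a mean of 116 ± 57.5. With DCA they were 377, 304 and 342, a mean of 341 ± 36.3. All 3 npr1-3 arrays with DCA lay above those of npr1-3 mock and below all 3 Col-0 arrays with DCA. Replicate 1 was the highest array of both npr1-3 groups.

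AT4G11000 was dim in mock plants at 48 h. Its Col-0 mock signals were 29.2, 25.5 and 30.1, a mean of 28.3 ± 2.45, all below the filter signal of 74.2. No detection calls were used, so folds against this group rest on a level that may lie near the array's background. Its means in both npr1-3 groups were under the filter signal as well. With DCA the signals were 239, 217 and 208, a mean of 221 ± 15.7, and with INA 161, 242 and 228, a mean of 211 ± 43.3. Every elicitor array lay far above every mock array, while DCA and INA overlapped.

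At 6 d the mock level of AT4G11000 was higher than at 48 h and the level with DCA lower. Mock signals were 91.5, 96.5 and 75.9, a mean of 88.0 ± 10.8. With DCA they were 132, 101 and 120.0, a mean of 118 ± 15.5, and with INA 178, 315 and 302, a mean of 265 ± 75.5. The groups still did not overlap, although DCA replicate 2 stood only just above mock replicate 2, and INA replicate 1 was the low one of its group.

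In npr1-3, AT4G11000 had mock signals of 47.0, 25.5 and 48.3, a mean of 40.3 ± 12.8. With DCA they were 64.8, 87.2 and 59.0, a mean of 70.4 ± 14.9. These groups did not overlap, and every npr1-3 array with DCA was well below the lowest Col-0 array with DCA, at 208.

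**Figure D1:**
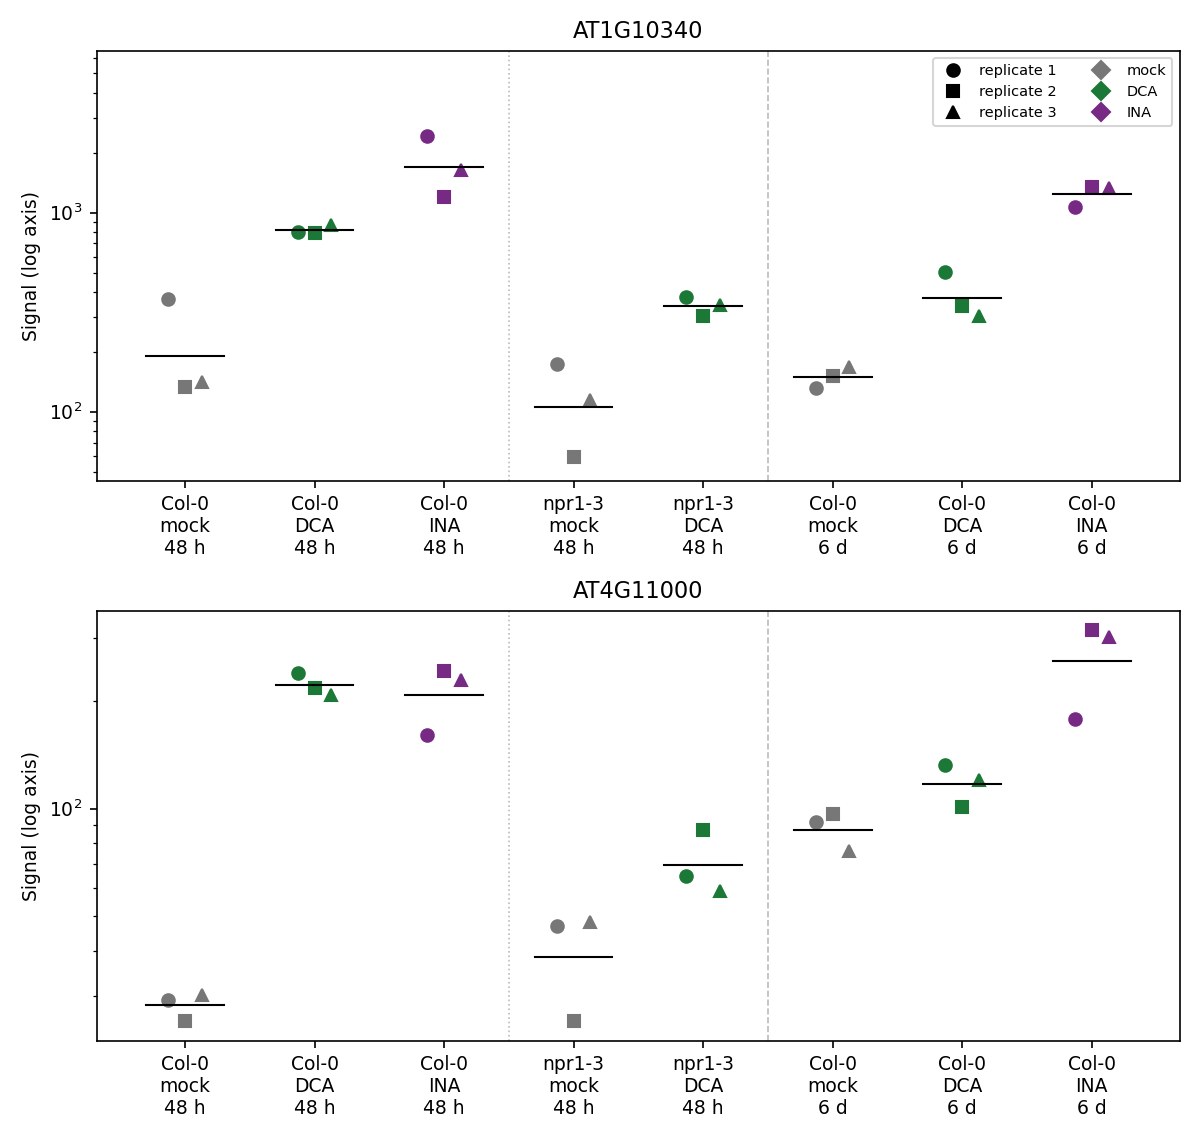
Signal of AT1G10340 (top) and AT4G11000 (bottom) on each of the 24 arrays, on log axes, by genotype, treatment and harvest. Symbols are replicates and the horizontal line is the geometric mean of 3 arrays. At each time and in each genotype both genes are lower in mock than with elicitor, AT1G10340 is highest with INA at 48 h, and the mock level of AT4G11000 is higher at 6 d than at 48 h.

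Ordered by geometric mean over the 8 groups, AT1G10340 ran from 1683 with INA at 48 h through 1239 with INA at 6 d, 818 with DCA at 48 h, 371 with DCA at 6 d and 339.7 in npr1-3 with DCA. Below these came 191 in Col-0 mock at 48 h, 149.7 in mock at 6 d and 106 in npr1-3 mock. Of its 7 pairs of neighbours in that order, 5 overlapped. The steps without overlap were those from INA at 6 d to DCA at 48 h and from there to DCA at 6 d.

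AT4G11000 had another order. It ran from 257 with INA at 6 d through 221 with DCA and 207 with INA at 48 h to 117 with DCA at 6 d and 87.5 in mock at 6 d, then to 69.4 in npr1-3 with DCA, 38.7 in npr1-3 mock and 28.2 in Col-0 mock at 48 h. Of its 7 pairs of neighbours, 4 overlapped, and the 3 that did not were INA at 48 h and DCA at 6 d, DCA and mock at 6 d, and both npr1-3 groups.

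The elicitor responses are given next as log2 changes between groups, fitted with limma and shown with their standard errors. For DCA against mock in Col-0 at 48 h, AT1G10340 was 2.1 ± 0.36 higher, with a 95% interval of 1.35 to 2.85, or 4.29-fold. AT4G11000 was 2.97 ± 0.27 higher (2.41 to 3.54), or 7.85-fold. By size these were the 66th and the 12th highest changes of 13648 probe sets. Without replicate 1 of every group the values were 2.59 and 2.94. For AT1G10340 the value was 2.57 without Col-0 mock replicate 1 alone, and ran from 1.84 to 2.59 over all alternatives.

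INA against mock at 48 h gave larger values for AT1G10340 and like values for AT4G11000. AT1G10340 was 3.14 ± 0.36 higher (2.39 to 3.90), or 8.83-fold, and AT4G11000 was 2.88 ± 0.27 higher (2.31 to 3.45), or 7.36-fold. They held places 24 and 37 from the top. Without replicate 1 of every group the values were 3.35 and 3.09, and without Col-0 mock replicate 1 alone AT1G10340 reached 3.62, or 12.3-fold.

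At 6 d the responses of the 2 genes to DCA were smaller. AT1G10340 was 1.31 ± 0.36 higher (0.56 to 2.06), or 2.48-fold, and AT4G11000 was 0.42 ± 0.27 higher (-0.15 to 0.99), or 1.34-fold. INA at 6 d left AT1G10340 3.05 ± 0.36 higher (2.30 to 3.80), or 8.28-fold, and AT4G11000 1.55 ± 0.27 higher (0.99 to 2.12), or 2.94-fold. Without replicate 1 the DCA values were 1.0 and 0.37 and the INA values 3.07 and 1.85.

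The change of a response with time is the response at 6 d minus that at 48 h. For DCA it was -2.55 ± 0.38 (-3.35 to -1.75) in AT4G11000 and -0.79 ± 0.51 (-1.86 to 0.28) in AT1G10340. For INA it was -1.33 ± 0.38 (-2.13 to -0.53) in AT4G11000 and -0.09 ± 0.51 (-1.16 to 0.97) in AT1G10340. The level of both mock groups enters these values, and in AT4G11000 the mock level differed between the harvests, as given below. Without replicate 1 the DCA values were -2.58 and -1.59 and the INA values -1.24 and -0.28 for AT4G11000 and AT1G10340. The value of AT1G10340 for DCA was -1.26 without Col-0 mock replicate 1 at 48 h alone, and ran from -1.59 to -0.53 over all alternatives. Its value for INA ran from -0.57 to 0.17.

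In npr1-3, DCA against mock gave 1.69 ± 0.36 (0.93 to 2.44), or 3.22-fold, for AT1G10340 and 0.84 ± 0.27 (0.27 to 1.41), or 1.79-fold, for AT4G11000. Between DCA-treated plants, npr1-3 was lower than Col-0 by 2.41-fold in AT1G10340, a log2 change of -1.27 ± 0.36, and by 3.19-fold in AT4G11000, a log2 change of -1.67 ± 0.27. The change of the DCA response with genotype, npr1-3 minus Col-0, was -0.42 ± 0.51 (-1.48 to 0.65) for AT1G10340 and -2.13 ± 0.38 (-2.93 to -1.33) for AT4G11000. Without replicate 1 of every group these values were -0.62 and -1.91, the DCA responses of npr1-3 were 1.97 and 1.03, and the differences between DCA-treated plants were -1.36 and -1.57, for AT1G10340 and AT4G11000. Over all alternatives the change of the response with genotype in AT1G10340 ran from -0.89, without Col-0 mock replicate 1, to -0.05, without npr1-3 mock replicate 1.

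**Figure D2:**
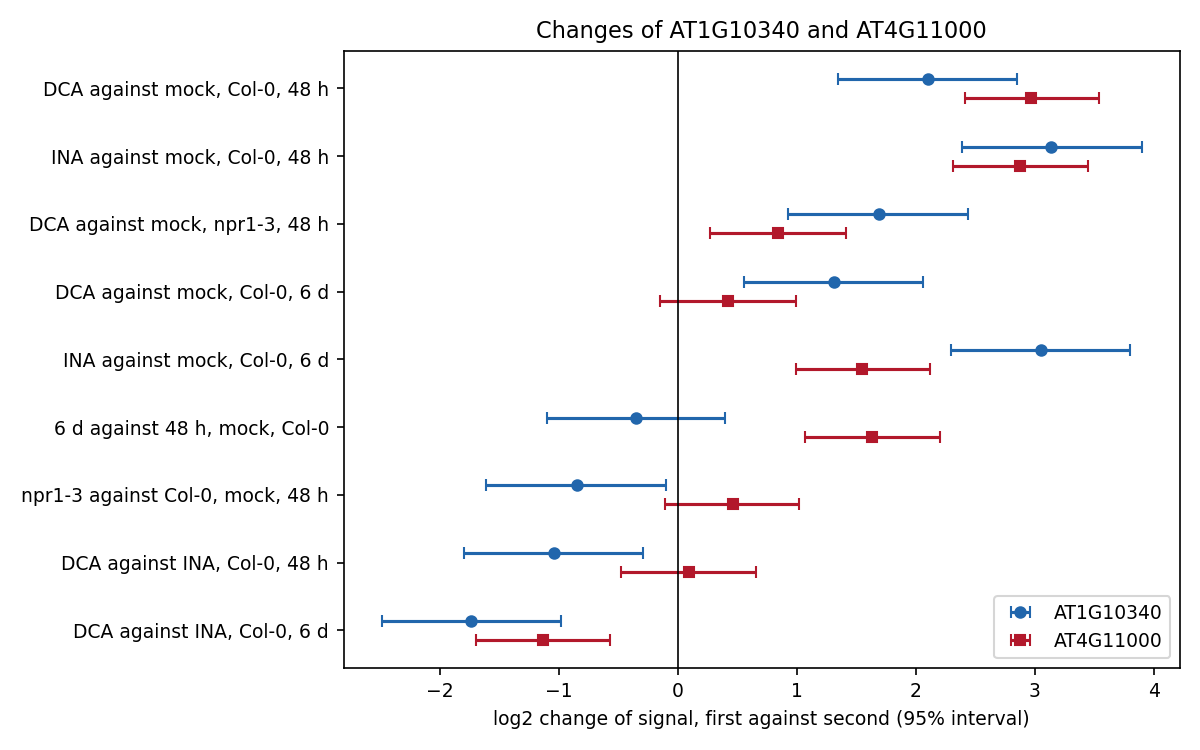
log2 change of signal of AT1G10340 (circles) and AT4G11000 (squares) in 9 comparisons of 2 groups, first against second, with 95% intervals from the fit to all 24 arrays. Both genes lie right of 0 with either elicitor at 48 h, the interval of AT4G11000 for DCA at 6 d holds 0, and AT1G10340 lies left of 0 for DCA against INA at both times.

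The other comparisons between groups are built from the same values that chose the genes: DCA against INA is the difference of both elicitor responses, and the mock groups enter the change of a response with time and with genotype. They too are described, with limma's estimates and intervals and no p-value for the 2 genes. DCA and INA can be set side by side at matched dose and time in 4 pairs, each gene at each time.

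At 6 d AT1G10340 was 3.34-fold lower with DCA than with INA, a log2 change of -1.74 ± 0.36 (-2.49 to -0.98), and every DCA array was below every INA array. Without replicate 1 of every group the change was -2.06. Limma called 29 of all probe sets here at an adjusted p under 0.05, or 0.212%, of which 28 were lower with DCA. Replicate numbers pair the arrays of these groups, and with the number as a block shared by all groups of a harvest it called 62.

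AT4G11000 was 2.19-fold lower with DCA than with INA at 6 d. The log2 change was -1.13 ± 0.27 (-1.70 to -0.57), again with no overlap of arrays. Without INA replicate 1, the low array of its group, it was -1.40, and without replicate 1 of every group -1.48.

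At 48 h the arrays of the compounds did not overlap in AT1G10340 and overlapped in AT4G11000. AT1G10340 was lower with DCA by a log2 change of -1.04 ± 0.36 (-1.80 to -0.29), and without replicate 1 of every group it was -0.76. AT4G11000 had a change of 0.09 ± 0.27 (-0.48 to 0.66). Its sign turned without INA replicate 1, at -0.09, and without replicate 1 of every group, at -0.15. Limma called 0 of all probe sets between DCA and INA at 48 h, or 0%, and 1623 had an unadjusted p under 0.05.

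In mock plants AT4G11000 had a 3.11-fold higher signal at 6 d than at 48 h, a log2 change of 1.63 ± 0.27 (1.07 to 2.20), with no overlap of arrays. It ran from 1.23 to 1.74 over all alternatives, and was 1.63 without replicate 1 of every group. Limma called 29 of all probe sets in this comparison, or 0.212%, of which 25 were higher at 6 d. AT1G10340 had a change of -0.35 ± 0.36 (-1.10 to 0.40) between the harvests, with overlap. This turned to 0.12 without mock replicate 1 at 48 h and to 0.21 without replicate 1 of every group.

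Without elicitor, the arrays of the genotypes overlapped for both genes at 48 h. AT1G10340 had a log2 change of -0.85 ± 0.36 (-1.61 to -0.10) in npr1-3 against Col-0, and AT4G11000 one of 0.46 ± 0.27 (-0.11 to 1.02). Over all alternatives AT1G10340 ran from -1.21 to -0.38, the latter without Col-0 mock replicate 1, and AT4G11000 from 0.30 to 0.76. Without replicate 1 of every group they were -0.74 and 0.34. Of all probe sets limma called 11, or 0.0806%, and 28 with the replicate number as a block.

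The 2 genes were set beside each other array by array. Over the 24 arrays the log2 signals of AT1G10340 and AT4G11000 had a Pearson r of 0.83 and a Spearman rho of 0.81. Over the 8 group means r was 0.87, and after the group means were taken off it was 0.28. The arrays share treatments and replicate numbers, so these are descriptions. Within the 15 arrays of 48 h r was 0.87 and within the 9 arrays of 6 d it was 0.93, where the points of AT4G11000 lie higher at a given level of AT1G10340 in mock plants.

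The genes whose pattern was most like each of them were ranked by Pearson r of log2 signal over the 24 arrays, among 7332 tested probe sets with a single gene. For AT1G10340 the first was AT2G39210, a gene of the major facilitator transporter superfamily, with r of 0.96, or 0.98 over the 8 group means. AT1G74440 followed at 0.96, then the EF-hand calcium-binding protein gene AT5G39670 at 0.94, AT3G48080 at 0.94 and the protein kinase gene AT1G66880 at 0.93. AT3G48080 is a near-identical copy of EDS1, the lipase-like immune regulator next to it, and the array may not separate them. AT2G39210 had a mean signal of 785 ± 330.3 in Col-0 mock and 2621 ± 1081 with INA at 48 h, and of 756 ± 126 and 2186 ± 468 at 6 d (SD, n = 3). With DCA in Col-0 it was 1759 ± 139 at 48 h and 1275 ± 157 at 6 d. In npr1-3 it was 522 ± 197 in mock and 1362 ± 120.5 with DCA. Genes most like either member were picked on these same arrays, so their signals only describe that likeness.

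For AT4G11000 the first was AT2G26190, a gene of a calmodulin-binding protein family, with r of 0.93, or 0.97 over the group means. Its mean signal was 390.4 ± 36.6 in Col-0 mock at 48 h and 695 ± 66.1 in mock at 6 d, and with DCA it was 1119.8 ± 77.0 and 703 ± 116 at these times. Then came AT3G62780 and the U-box ubiquitin ligase gene PUB24 (AT3G11840) at 0.91, the transporter gene AT5G54860 at 0.90 and the leucine-rich repeat receptor kinase gene AT1G35710 at 0.90. The 5 genes most like AT1G10340 and the 5 most like AT4G11000 had 0 in common. Among the 50 most like each, 19 were shared, or 38.0% of each list. AT4G11000 itself was number 79 for AT1G10340, and AT1G10340 number 50 for AT4G11000.

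Other ankyrin-repeat genes were taken from a list of 44, which joined the membrane-bound family with genes that RefSeq names as ankyrin. Of these, 22 had a probe set annotated to them alone and 11 passed the filter. For DCA at 48 h limma called 1 of the 11 higher and 0 lower, AT2G24600, and their median log2 change was 0.60 beside 0.01 for all probe sets. Of all probe sets 2.41% were called, and 1 of 11 rests on a single gene. At an unadjusted p under 0.05, limma had 6 of the 11 higher and 0 lower, beside 15.3% of all probe sets. For INA at 48 h 2 were called higher and 0 lower, with a median of 0.29 beside 0.01, where 2.65% of all were called, 362 in number and 606 with the replicate number as a block. For INA at 6 d 1 was called higher, with a median of 0.29 beside 0.00, where 1.83% of all were called. At an unadjusted p under 0.05, limma had 4 of 11 higher and 0 lower with INA at 48 h, beside 11.5% of all probe sets. With INA at 6 d it had 2 higher and 1 lower, beside 14.1%.

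AT2G24600 had a DCA response at 48 h close in size to that of AT1G10340. Its signals were 329, 1227 and 626 in Col-0 mock, 2975, 3093 and 2126 with DCA and 733, 2050.3 and 1508 with INA. The DCA arrays lay above all mock arrays, and the INA arrays overlapped mock. It rose by a log2 change of 2.09 with DCA (limma adjusted p 0.00790). This call was lost without DCA replicate 2 (0.0532), without mock replicate 1 (0.0625) and without replicate 1 of every group (0.0737). It was lost too on arrays of the compared groups alone (0.0625). With INA the change was 1.05 (0.261). At 6 d its mock signals were 1344, 1635 and 1369.6. There the log2 change was 0.21 with DCA (limma adjusted p 0.954) and 0.07 with INA (0.956), and neither passed the test.

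AT3G13950 had a pattern closer to that of AT1G10340 with INA. Its signals were 442, 404 and 348 with INA at 48 h against 173, 78.2 and 36.1 in mock, and 421, 482 and 479 against 125, 78.2 and 57.2 at 6 d. It rose with INA by 2.33 at 48 h (limma adjusted p 0.0252) and by 2.48 at 6 d (0.0229), without overlap of arrays. Each call was lost in 5 of the 6 fits without one array, at adjusted p up to 0.209 and 0.107. At both times it held only without mock replicate 1. The call at 48 h was also lost on arrays of the compared groups alone (0.132). ANK1 (AT5G02620) rose with INA at 48 h by 0.80 (0.0453). This call was lost in 5 of 6 fits without one array, and held only without mock replicate 2. It was also lost in 4 of the 6 other settings, among them without replicate 1 of every group (0.144). With DCA at 48 h AT3G13950 had 1.50 (0.203) and ANK1 0.60, which missed the threshold.

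For DCA at 6 d limma called 0 of the 11 ankyrin genes and 0 of all probe sets, or 0%, with 1 of the 11 and 444 of all (3.25%) at an unadjusted p under 0.05. In npr1-3 with DCA, 0 of the 11 were called, 2 at an unadjusted p under 0.05 beside 7.88% of all probe sets, and 0.322% of all were called, 44 in number and 77 with the block. The changes of the response gave 0 of 11 for each. At an unadjusted p under 0.05 these had 2 of 11 beside 12.3% of all probe sets for DCA with time, 0 beside 2.54% for INA with time and 1 beside 4.44% for DCA with genotype. Over all probe sets these interactions had 0.0220%, 0% and 0.00733% called. AT1G10340 and AT4G11000 are among the genes that these contrasts chose, so nothing is read from those shares for them.

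Between DCA-treated plants limma called 3 of the 11 ankyrin genes lower and 0 higher in npr1-3, where 12.7% of all probe sets were called in either direction. At an unadjusted p under 0.05 it had 4 lower and 1 higher, beside 28.6% of all probe sets. AT2G24600 fell by 3.19 on the log2 scale (limma adjusted p 1.53e-04), with npr1-3 signals of 260.0, 234 and 425. AT5G54720 fell by 2.74 (0.00237), with signals of 329.5, 319 and 200.4 in Col-0 and 23.4, 47.3 and 63.3 in npr1-3. In mock plants too its npr1-3 signals, 24.1, 25.2 and 47.2, lay below those of Col-0, 65.8, 185 and 65.3. AT2G31820 fell by 0.90 (0.0129), a call lost without Col-0 DCA replicate 1 (0.0614). The other 2 calls held in each of 6 fits without one array. AT4G03450, at -1.19, missed the threshold (0.0583).

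In mock plants npr1-3 had AT2G24600 signals of 229.5, 177 and 95.8, all below Col-0 mock. That change, -2.01, missed the threshold (limma adjusted p 0.0635). Replicate numbers pair these arrays, but the block was shared by all groups of 48 h. With this block the change was called (0.0475), 1 of the 11. Between the genotypes in mock, and for mock at 6 d against 48 h and DCA against INA at both times, limma called 0 of the 11 ankyrin genes without the block. At an unadjusted p under 0.05 these comparisons had 2 for genotype beside 10.9% of all probe sets, 4 for mock harvest beside 15.2%, 1 for the compounds at 48 h beside 11.9% and 4 at 6 d beside 5.85%.

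**Figure D3:**
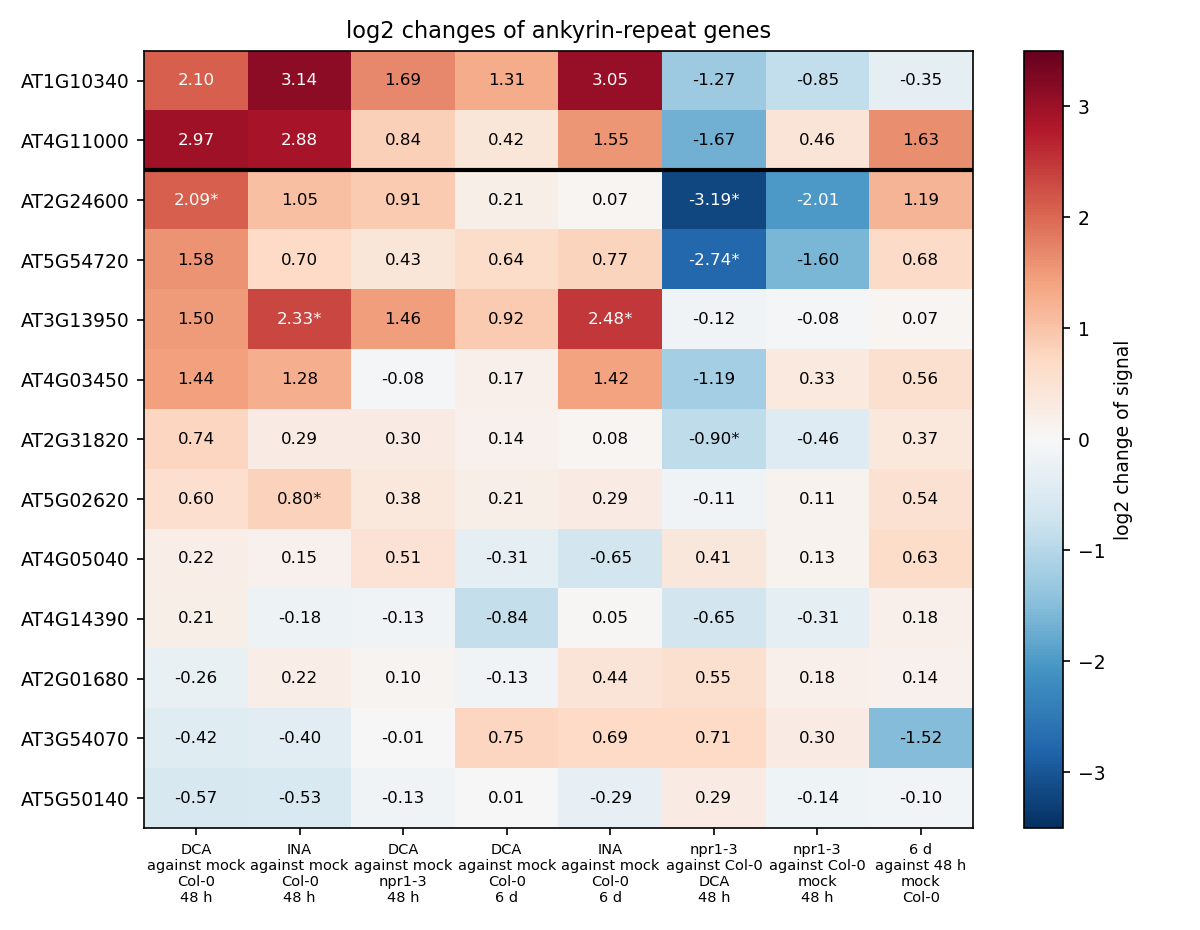
log2 change of signal in 8 comparisons for AT1G10340 and AT4G11000 (above the line) and the 11 other tested ankyrin-repeat genes. Red is higher and blue lower in the first group, and a star marks a limma call of one of the 11. AT2G24600 has the most negative value for npr1-3 against Col-0 with DCA, -3.19, and AT3G13950 is the closest to AT1G10340 in the INA columns, at 2.33 and 2.48.

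Genes of SA synthesis and response came from a list of 41, of which 8 had a probe set annotated to them alone and 4 were tested. DCA at 48 h had 2 of 4 called higher, beside 2.41% of all probe sets called: GRX480, a glutaredoxin gene whose product binds TGA factors, at 2.55 (limma adjusted p 0.0454) and SAG101, an EDS1 partner, at 1.04 (0.0277). INA at 48 h had 3, beside 2.65% of all: these 2, at 2.47 (0.0495) and 1.14 (0.0109), and SARD4, a reductase gene of pipecolic acid synthesis, at 2.01 (0.00774). With DCA in npr1-3 against Col-0, where 12.7% of all were called, GRX480 fell by 2.02 (0.0498) and SAG101 by 1.07 (0.00872). WRKY53, a transcription factor gene, was not called with INA at 48 h (1.95, adjusted p 0.113). It was called with the replicate number as a block shared by all groups of 48 h (0.00552), so that all 4 were called. The other comparisons had 0 of 4 called by limma without the block, beside 0% to 1.83% of all probe sets. At an unadjusted p under 0.05, INA at 6 d had 3 beside 14.1% of all probe sets. DCA against INA at 6 d had 2 beside 5.85%. Each of the rest had 0 or 1, beside 2.54% to 15.2%.

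At 6 d replicate 1 stood out in GRX480. The signals of GRX480 were 2342, 312 and 308 with DCA and 2955, 909 and 897 with INA against 353, 319 and 433 in mock, so with DCA replicate 1 alone lay above mock. AT1G10340 also had its highest DCA array in replicate 1, at 502, but all 3 lay above mock, and with INA its replicate 1 was the lowest. SARD4 kept its call in all 6 fits without one array and GRX480 lost each of its calls in 5 of 6. SAG101 lost its call in 5 of 6 for DCA, and in 1 of 6 both for INA, without mock replicate 2 (0.0696), and between genotypes, without Col-0 DCA replicate 1 (0.0682). In the other settings its DCA call was lost in 4 of 6, among them without replicate 1 of every group (0.119). That setting also lost its call between genotypes (0.0821), and its INA call was lost on arrays of the compared groups alone (0.0706).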

How the data were processed

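The deposited values are linear signal intensities. Per the submitters' processing notes the authors used GCOS, of unstated version. Each array had been scaled to a trimmed mean of 500.1, with 2% left out at either end. A floor of 1 was set before taking log2. Probe sets at or above the 40th percentile of mean log2 signal (74.2), 13648 of 22746, were fitted in R 4.3.3 by limma 3.58.1, using all 24 arrays (means model of the 8 groups, intensity trend, 16 residual degrees of freedom, prior 4.44), with two-sided tests and Benjamini-Hochberg adjustment within each comparison. Fits were tested on simulated data. With 3 arrays a group, a log2 change between groups had a median 95% half-width of 0.59. Tables and figures were made in Python 3.11.15 with pandas 2.3.3 and matplotlib 3.10.9.

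Tests planned for the 2 genes between compounds, mock harvests and mock genotypes are not printed, since these comparisons are built from values that chose the genes. The genes and gene lists were chosen with earlier results of these data known, and the ankyrin and SA lists are not independent of them. Gene names come from RefSeq and the array's annotation, where 13513 probe sets have 1 gene, 503 have several and 8730 have no entry. A listed gene left out for want of a single-gene probe set may therefore still be measured on the array. The rule for named genes took both members, the 5 most like each, and called list members, up to 4 a comparison. Protein relatives, sequences and coordinates were not analysed here. Replicate numbers were held to pair arrays where every number's deviations from group means correlated above 0.1: in INA and mock at 48 h (0.29 to 0.78), DCA and mock in npr1-3 (0.12 to 0.67), DCA and INA at 6 d (0.46 to 0.75) and mock of both genotypes (0.10 to 0.36). As a block, the number was fitted as effects shared by all groups of a harvest. These include groups whose numbers do not pair, such as Col-0 DCA and Col-0 mock at 48 h (-0.10 to 0.19). No block was fitted to the compared groups alone. All columns were mapped to a sample, with 0 left over.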

Additional observations from a re-analysis of the deposited data

How the results depend on the processing

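Of 348 alternative values for the 26 changes of AT1G10340 and AT4G11000, 339 had the sign of the value reported and 337 lay within 1 SD between replicates of it. These counts include fits that cannot move a log2 change by construction. Such fits are those without the filter, on arrays of the compared groups alone, and with the replicate number as a block. The signs turned in the change of the INA response with time in AT1G10340 (5 of 18 alternatives, up to 0.17), in DCA against INA at 48 h in AT4G11000 and in mock at 6 d against 48 h in AT1G10340 (2 of 12 each). On log2(signal + 16), which shrinks changes of dim probe sets by construction, AT4G11000 had 2.42 for DCA and 2.34 for INA against mock at 48 h, -2.06 and -0.94 for the change of these responses with time, -1.79 for the change of the DCA response with genotype and 1.23 for mock at 6 d against 48 h. With replicate 1 removed from every group, AT1G10340 had 1.0 for DCA at 6 d, -1.59 for the change of the DCA response with time, -2.06 for DCA against INA at 6 d and 0.21 for mock at 6 d against 48 h, and AT4G11000 had -0.15 for DCA against INA at 48 h; the cause was not tested.

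Leaving out one array at a time gave ranges of -1.96 to -1.59 for DCA against INA at 6 d in AT1G10340, -1.40 to -0.99 in AT4G11000, and -0.09 to 0.20 at 48 h in AT4G11000. Mock at 6 d against 48 h ran from -0.61 to 0.12 in AT1G10340 and from 1.56 to 1.74 in AT4G11000, and the change of the DCA response with time in AT1G10340 from -1.26 to -0.53. The change of the INA response with time in AT1G10340 ran from -0.57 to 0.17 over all alternatives, with its sign turned in 5 of 18.

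With the replicate number as a block changes stay the same by construction, such as -1.74 for DCA against INA at 6 d in AT1G10340. Among the list genes in comparisons whose numbers pair, the block added the calls of WRKY53 and AT2G24600 given above and changed no other. Elsewhere the block raised all probe sets called from 329 to 945 (DCA at 48 h) and 250 to 854 (INA at 6 d). The count went from 1732 to 3264 (npr1-3 against Col-0 with DCA) and 29 to 960 (mock harvests). For responses with time, whose pairing was not assessed, it went from 3 to 147 (DCA) and 0 to 2 (INA).

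Over all alternatives the count of all probe sets called ran from 107 to 945 for DCA and 167 to 606 for INA at 48 h, from 0 to 2 and 120 to 854 at 6 d, from 0 to 165 for DCA in npr1-3, 709 to 3264 and 0 to 1852 between genotypes with DCA and in mock, 1 to 147, 0 to 2 and 0 to 4 for the interactions with time (DCA, INA) and genotype, 0 to 43 and 0 to 130 between the compounds at 48 h and 6 d, and 0 to 960 between mock harvests. Ankyrin genes called ran from 0 to 4 for DCA and 0 to 2 for INA at 48 h, 0 to 2 for INA at 6 d and 2 to 4 between genotypes with DCA. SA genes called ran from 0 to 3, 1 to 4, 0 to 3 and 0 to 2 in these comparisons. In the comparisons not named here, ankyrin counts reached 2 at most and SA counts 2. Of the 5 genes most like AT1G10340, 4 stayed among the first 5 after quantile normalization and 3 by Spearman rank correlation, and for AT4G11000 4 and 2.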
